A study of Mus musculus with 8 samples.

Results

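Megakaryocytes, the bone marrow and fetal liver cells that shed platelets, share a progenitor with the erythroid lineage, and 9 genes of their program (Vwf, Gp1ba, Gp1bb, Gp9, Gp5, Gp6, Itga2b, Pf4 and Ppbp) were followed here in cultured erythroid progenitors. The genes were taken by the gene name printed for each non-control probe of the array, which found 11 probes for the 9 genes, and all 9 were among the 19130 genes tested. The cells were early erythroid progenitors of C57BL/6 mouse fetal liver at E14.5. Cells carrying mature lineage markers, Sca-1, CD16/32, CD41 or CD34 had been removed magnetically, and from the rest c-kit positive cells with the 10% lowest CD71 were sorted. Total RNA was measured after 3 days of culture on 1-colour arrays, 2 for each of 4 groups: a virus carrying shRNA2 against an RNA-binding protein, with DEX, a virus carrying shRNA1 against the same protein, with DEX, a control virus with DEX, and a control virus without DEX. DEX belongs to the glucocorticoids named in the title of the series. Every group was therefore infected and cultured, and no shRNA group without DEX and no freshly sorted cells were analysed here.

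The labels call the targeted protein only an RNA-binding protein, and its identity, Zfp36l2, is taken from the published work on this system. The normalized log2 signal of Zfp36l2 was 4.12 and 3.70 with shRNA2, 4.09 and 3.92 with shRNA1, 5.55 and 5.42 in control-virus cells with DEX, and 3.49 and 3.85 in control-virus cells without DEX. All 13 erythroid marker genes tested were well above background on all 8 arrays, and markers of other fetal liver cells were detected in part. Of the hepatocyte genes, the Alb (albumin) probe was well above background on 0 of 8 arrays and the Afp (alpha-fetoprotein) probe on 8 of 8. Of the endothelial genes, the Cdh5 probe was so on 0 of 8, those of Pecam1 and 1 of 2 Kdr probes on 8 of 8, and the other Kdr probe and Tek on 7 of 8. The 8 arrays lay on 2 slides, and each slide held 1 array of every group: the first slide all arrays numbered replicate 1, the second all arrays numbered replicate 2. The 75th percentile of the signal, the value each array was scaled to, was 522 and 1665 with shRNA2, 476 and 1439 with shRNA1, 966 and 2061 with the control virus and DEX, and 1003 and 1923 with the control virus without DEX. Between 59.5% and 62.9% of spots were well above background on each array. Replicate 1 of shRNA2 stood apart for the platelet genes: it was the highest of the 8 arrays for 8 of the 9, against 16.6% of all genes. Values that rest on it are therefore given on each slide and without it. Over all genes, replicate 1 of shRNA1 was the array most often highest, for 33.4% of genes and for 1 of the 9 members.

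Platelets stop bleeding in steps that map onto these genes. Von Willebrand factor (Vwf), made by megakaryocytes and by endothelial cells, tethers platelets to the injured vessel wall by binding glycoprotein Ib alpha (Gp1ba), which sits in the membrane in a complex with glycoprotein Ib beta (Gp1bb), glycoprotein IX (Gp9) and glycoprotein V (Gp5). Glycoprotein VI (Gp6) is the platelet receptor for collagen, and integrin alpha IIb (Itga2b, the CD41 antigen) pairs with integrin beta 3 to bind fibrinogen. Platelet factor 4 (Pf4) and pro-platelet basic protein (Ppbp) are CXC chemokines stored in alpha granules. Transcription factors of the GATA, ETS and RUNX families are known to drive the megakaryocyte program. CD41 positive cells were depleted before culture, and the Itga2b probe was nevertheless well above background on 8 of 8 arrays after 3 days.

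Of the 11 probes, 9 were well above background on 8 of 8 arrays, 1 for each gene, and those 9 gave the tested values. The exceptions were the further 2 of the 3 Gp1bb probes, well above background on 2 and 3 of 8 arrays, which were not tested. No spot of a member carried an outlier or saturation mark. Probe positions are those of the array's annotation in mouse build mm9, and exons or untranslated regions were not looked up, because no annotation of that build was used. The tested Gp1bb probe lay at chr16:18621107-18621166 on the minus strand. The other Gp1bb probes lay at chr16:18621535-18621594 and chr16:18621717-18621776. The Itga2b probe of 60 bases spanned 209 bases at chr11:102319453-102319661 on the minus strand, so by its coordinates it is split in the genome. The Gp5 probe was at chr16:30308347-30308406 and the Gp6 probe at chr7:4320351-4320410, both on the minus strand. On the plus strand were the probes of Gp1ba at chr11:70455461-70455520, Gp9 at chr6:87729650-87729709 and Vwf at chr6:125636551-125636610. Ppbp (chr5:91198970-91199029) and Pf4 (chr5:91202275-91202334), also on the plus strand, are neighbours: their probes are 3246 bases apart and 0 genes are listed between them in the RefSeq gene table. Every member was thus read from 1 probe. Printed below are the probe used for Gp1bb, the one gene with several, and that of Itga2b, the gene of the CD41 antigen used in the depletion.
Gp1bb probe: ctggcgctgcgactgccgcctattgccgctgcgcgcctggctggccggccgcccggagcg
Itga2b probe: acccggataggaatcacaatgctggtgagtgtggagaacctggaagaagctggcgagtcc

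Promoter sequence was available from RefSeq (GRCm38.p6) for 8 of the 9 genes, all but Vwf. The 250 bases before each start were searched on both strands for AGATAA and TGATAA (words of GATA factors), GGAAGT (a word of ETS factors) and TGTGGT (a word of RUNX factors), which do not overlap one another in the members. GGAAGT or its reverse complement ACTTCC was in 5 of the 8 promoters (Ppbp, Pf4, Gp9, Itga2b and Gp5), against 19.7% of 32851 promoters. A GATA word was in 3 of 8 (AGATAA in Gp6 and Gp5, TGATAA in Gp1ba), against 16.6% of promoters, and the RUNX word was in 1 of 8 (Gp9), against 14.0%. With 8 promoters these counts are a description only. Of those 8, the 4 printed below are Gp6, Pf4 and Ppbp, at least 2-fold lower with DEX on both slides, and Gp5, whose signal varied little. They run 5′ to 3′ along the gene and end at the base before the start. Capitals mark the words found.
Gp6 promoter: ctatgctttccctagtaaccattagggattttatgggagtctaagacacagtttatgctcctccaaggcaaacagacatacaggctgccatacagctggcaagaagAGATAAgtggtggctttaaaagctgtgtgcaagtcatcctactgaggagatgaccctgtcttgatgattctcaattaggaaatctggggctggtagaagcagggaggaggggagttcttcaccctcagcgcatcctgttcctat
Pf4 promoter: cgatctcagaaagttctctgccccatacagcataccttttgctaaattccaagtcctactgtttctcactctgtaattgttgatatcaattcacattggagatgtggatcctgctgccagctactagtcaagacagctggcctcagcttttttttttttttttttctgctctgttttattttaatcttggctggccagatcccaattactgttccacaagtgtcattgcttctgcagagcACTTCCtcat
Ppbp promoter: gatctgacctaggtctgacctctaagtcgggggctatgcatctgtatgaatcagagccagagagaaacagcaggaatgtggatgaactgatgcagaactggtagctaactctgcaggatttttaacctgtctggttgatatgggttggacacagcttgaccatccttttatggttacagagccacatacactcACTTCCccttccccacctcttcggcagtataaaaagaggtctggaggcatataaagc
Gp5 promoter: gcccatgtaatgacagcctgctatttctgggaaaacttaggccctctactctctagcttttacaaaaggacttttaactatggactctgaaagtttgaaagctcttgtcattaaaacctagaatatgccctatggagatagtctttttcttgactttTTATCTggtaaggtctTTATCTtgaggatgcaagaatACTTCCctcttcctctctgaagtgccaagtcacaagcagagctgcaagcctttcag
These lie at chr7:4397745-4397994 on the minus strand for Gp6, chr5:90772185-90772434 on the plus strand for Pf4, chr5:90768268-90768517 on the plus strand for Ppbp, and chr16:30310782-30311031 on the minus strand for Gp5. The GATA word of Gp6 lies 144 bases before the start, that of Gp5 occurs 93 and 77 bases before it, and the ETS words of Pf4, Ppbp and Gp5 lie 10, 57 and 56 bases before it. Gp5 holds both GATA and ETS words. A match is a description of these letters, not of binding.

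Values in the following paragraphs are log2 signals relative to the 75th percentile of the array, given as replicate 1 and replicate 2, and they are levels of 1 probe, not comparable between genes. The samples are bulk RNA, so fewer cells of a type and less RNA per cell cannot be told apart. Vwf, the ligand, had 3.37 and -0.89 with shRNA2, 2.14 and -0.13 with shRNA1, 0.27 and -0.88 in control-virus cells with DEX, and 1.56 and 1.58 in control-virus cells without DEX. Both control arrays with DEX lay below both without it, and each shRNA group was high on slide 1 and low on slide 2.

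Within the GPIb-IX-V complex, Gp1ba, which carries the Vwf binding site, varied little: 1.26 and 0.44 with shRNA2, 0.18 and 0.77 with shRNA1, 0.01 and 0.26 in control-virus cells with DEX, and 0.57 and 0.50 without DEX. Its signal was lower on both control arrays with DEX than on both without. Gp1bb, the partner subunit, gave 0.49 and -2.72 with shRNA2, -1.28 and -2.22 with shRNA1, -2.29 and -2.31 in control-virus cells with DEX, and -1.91 and -1.11 without DEX. Gp9, the small subunit needed for surface display of the complex, gave 3.79 and 0.57 with shRNA2, 3.57 and 1.97 with shRNA1, 1.73 and 0.65 in control-virus cells with DEX, and 2.43 and 1.79 without DEX. Both shRNA1 arrays were above both control arrays with DEX, while the shRNA2 arrays lay on either side of them. Gp5, the subunit that thrombin cleaves, was nearly flat: 1.85 and 1.34 with shRNA2, 1.23 and 1.52 with shRNA1, 1.83 and 1.75 in control-virus cells with DEX, and 1.65 and 1.57 without DEX.

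Gp6, the collagen receptor, had the widest range over the 8 arrays: -0.32 and -5.24 with shRNA2, -2.29 and -4.22 with shRNA1, -4.33 and -5.24 in control-virus cells with DEX, and -3.15 and -2.71 without DEX. Replicate 1 of shRNA2 was far above every other array, and replicate 2 was at the level of control replicate 2 with DEX. The low values came from dim spots, though marked well above background. The processed signal was 43.9 in replicate 2 of shRNA2 and 48.2 and 54.5 in control-virus cells with DEX, against 419 in replicate 1 of shRNA2. The size of log2 differences of Gp6 therefore depends on the background correction. Itga2b, the fibrinogen receptor subunit, gave 3.58 and 0.63 with shRNA2, 3.60 and 1.39 with shRNA1, 2.27 and 0.68 in control-virus cells with DEX, and 1.21 and 0.64 without DEX. It followed the slides, with replicate 1 above replicate 2 in all 4 groups.

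Among the chemokines, Pf4 had 6.97 and 2.61 with shRNA2, 5.35 and 3.18 with shRNA1, 3.88 and 3.21 in control-virus cells with DEX, and 5.06 and 5.73 without DEX. The brightest Pf4 spot by processed signal, 102048 in replicate 2 of the control virus without DEX, held 0 saturated pixels. Ppbp had 0.41 and -2.88 with shRNA2, -1.06 and -3.11 with shRNA1, -3.23 and -3.49 in control-virus cells with DEX, and -0.61 and -0.41 without DEX. Both control arrays with DEX were the lowest of the 8 for this gene, and both without it were among the 4 highest.

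**Figure D1:**
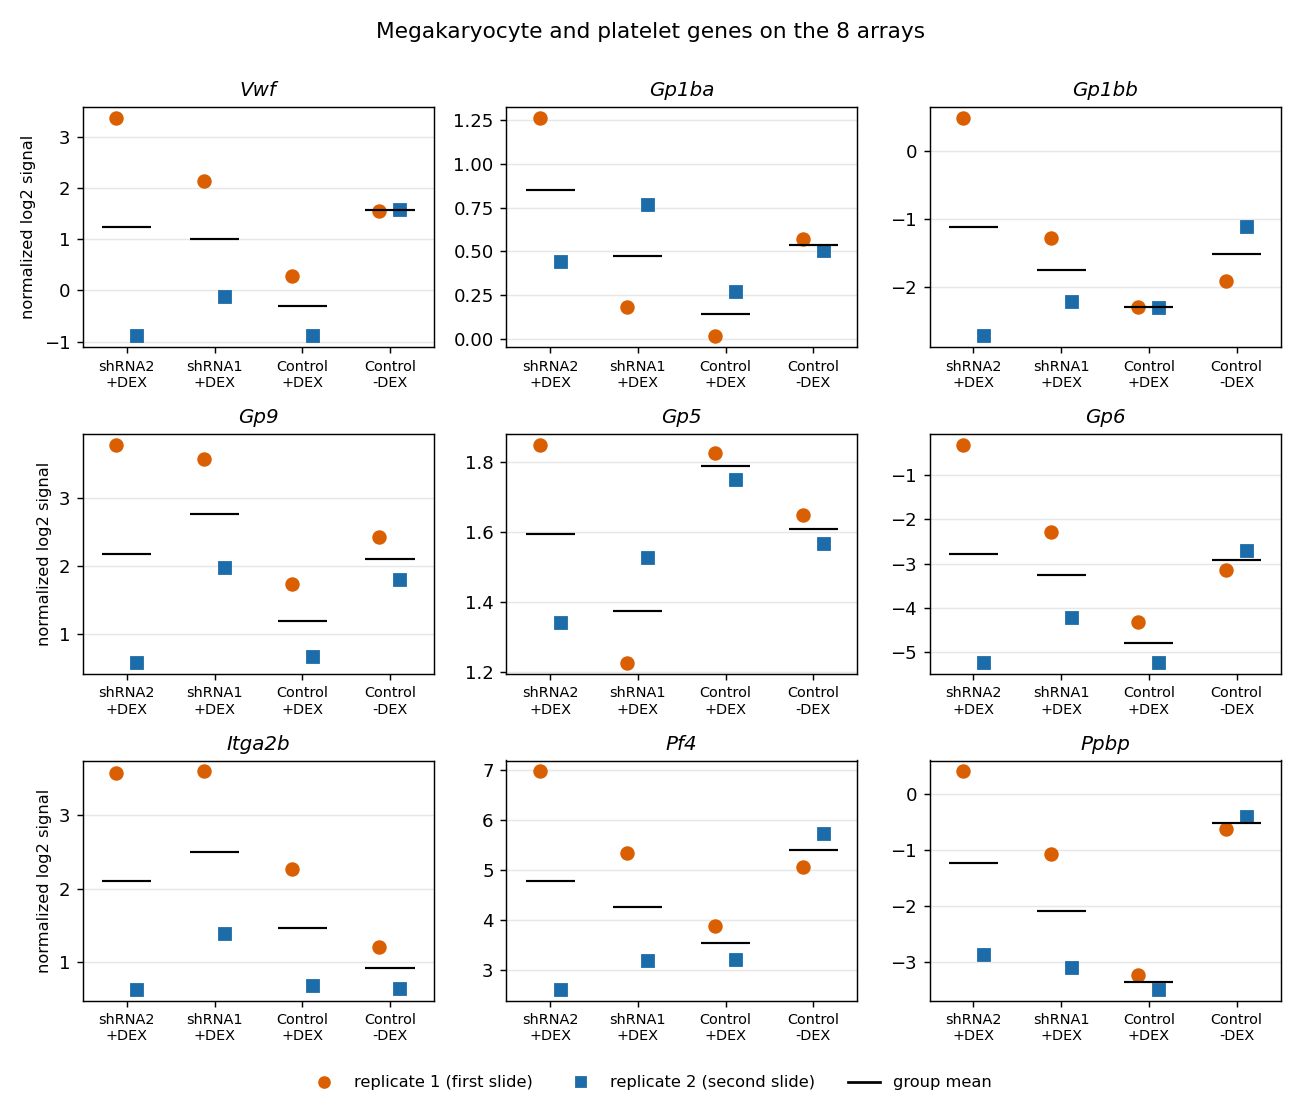
Normalized log2 signal (log2 minus the array 75th percentile, y axis) of each of the 9 genes on each array, by group on the x axis; points are arrays, with replicates marked. For 8 of the 9 genes replicate 1 of shRNA2 is the highest point, Itga2b being the exception.

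With DEX, 7 of the 9 platelet genes were lower on both control-virus arrays than on either array without it, and 1, Gp5, was higher on both. Of all genes, 16.5% were lower and 10.4% higher in this way, and 61.6% had a negative mean difference. The signals of Ppbp, Vwf, Pf4 and Gp6 were at least 2-fold lower on each slide, whereas 2.05% of all genes were. In limma, fitted to all 8 arrays and adjusted by Benjamini-Hochberg over all genes, 0 of 9 passed at 0.05, as did 0 of all genes (0%). Ppbp differed most, by a log2 difference of -2.85 (SE 1.14), which is 7.21-fold lower, with -2.62 on slide 1 and -3.08 on slide 2. Its 95% interval was -5.61 to -0.09, its unadjusted p was 0.045 and its adjusted p was 1.00 in limma. Pf4 was 3.62-fold lower (log2 difference -1.86, SE 1.43, interval -5.34 to 1.63, -1.19 and -2.52 on the slides), and Vwf 3.66-fold lower (-1.87, SE 1.43, -1.29 and -2.46). Gp6 was 3.62-fold lower (-1.85, SE 1.55, -1.18 and -2.53), and the adjusted p of all 9 genes was 1.00 in limma. The remaining differences were -0.92 for Gp9, -0.79 for Gp1bb, -0.40 for Gp1ba, 0.18 for Gp5 and 0.55 for Itga2b, the one gene whose groups overlapped. The median over the 9 genes was -0.92 against -0.075 over all genes, with -0.70 and -1.20 on the 2 slides against -0.10 and -0.032. With the slide as a block 44 of all genes (0.23%) and 0 of 9 members passed, and Ppbp had an adjusted p of 0.334 in that limma fit. At an unadjusted p below 0.05 there were 594 genes in all (3.11%) and 1 member, Ppbp, and with the block 9.56% of all genes and again 1 member, Ppbp. The number at least 2-fold lower on both slides was 4 of 9 under 3 scalings (75th percentile, array median and quantile) and 2 of 9 with normexp background correction and with the authors' own values. With both of these Gp6 and Pf4 fell short on slide 1, and Ppbp and Vwf remained. On that slide Pf4 was at -0.92 with normexp and -0.93 with the authors' values, and Gp6 at -0.65 and -0.85. By mean, Gp6 differed by -0.94 with normexp and -1.14 with the authors' values, and Ppbp by -2.14 and -2.37.

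With shRNA1 in the presence of DEX, 8 of the 9 genes had a higher mean than with the control virus and DEX, as had 62.1% of all genes, and 4 (Gp6, Gp9, Ppbp and Gp1bb) were above without overlap, against 18% of all genes. Gp5 was below without overlap, as were 7.56% of all genes. Gp6 and Gp9 were at least 2-fold higher on both slides, against 3.04% of all genes. Under each of the other 4 scalings 1 member was, Gp9, and Gp6 on slide 2 was between 0.38 and 0.85 there. Gp9 differed by 1.58 (SE 1.11, 1.84 and 1.32 on the slides), a 3.00-fold higher signal, and Gp6 by 1.53 (SE 1.55, 2.04 and 1.02), which was 0.72 with normexp and 0.86 with the authors' values. Of the other members, Vwf was at 1.31, Ppbp 1.27, Itga2b 1.02, Pf4 0.72, Gp1bb 0.55, Gp1ba 0.34 and Gp5 -0.41, with an adjusted p of 0.923 in limma for all 9. No member and no gene passed (0%), with 400 genes and 0 members below an unadjusted 0.05 (2.09%). With the slide as a block in limma, Gp9 had an adjusted p of 0.275 and was the 1 member below 0.05 unadjusted, as were 17.8% of all genes. The median over members was 1.02 against 0.18 over all genes, 1.47 and 0.50 on the slides. Scaling to the array median moved the median of all genes to -0.22, with 7 of 9 members still higher and Gp1ba at -0.062. Without replicate 1 of shRNA1, 6 of the 9 members were higher and 3 lower. The median of members then exceeded that of all genes by 0.11. Those values set an array of slide 2 against control arrays on both slides.

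With shRNA2 in the presence of DEX, 8 of 9 genes had a higher mean than with the control virus and DEX, as had 51.4% of all genes, but 7 of the 9 differed in sign between the slides. Only Gp1ba and Ppbp were above without overlap, against 7.26% of all genes, and 0 were below without overlap, against 8.19%. None was at least 2-fold higher on both slides, against 0.758% of all genes. Ppbp was 4.37-fold higher (log2 difference 2.13, SE 1.14, interval -0.63 to 4.89), at 3.64 and 0.61 on the slides. Gp6 had log2 differences of 4.01 on slide 1 and close to 0 on slide 2, with a mean of 2.00 (SE 1.55). Vwf was at 3.09 on slide 1 and near 0 on slide 2. On slides 1 and 2, Gp9 was at 2.06 and -0.083, Pf4 at 3.10 and -0.60, Gp1bb at 2.79 and -0.42, Itga2b at 1.31 and -0.049, Gp1ba at 1.25 and 0.18, and Gp5 at 0.023 and -0.41. The median over members was 1.18 against 0.013 over all genes, with 2.79 on slide 1 and -0.049 on slide 2. Adjusted p was 1.00 in limma for all 9, 0 of all genes passed (0%), and 240 genes and 0 members were below an unadjusted 0.05 (1.25%). With the slide as a block 1 gene in all passed (0.00523%), no member among them. Without replicate 1 of shRNA2, 7 of the 9 differences were negative (Pf4 -0.93, Itga2b -0.85, Gp9 -0.62, Vwf -0.59, Gp6 -0.46, Gp5 -0.45, Gp1bb -0.42) and only Ppbp (0.48) and Gp1ba (0.30) stayed above 0. These values set an array of slide 2 against the mean of control arrays on both slides, so they include the slide difference of the control. Against the control array of slide 2 alone, Vwf, Gp6, Itga2b and Gp9 were near 0, as given above.

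On the first slide the shRNA2 values of 8 of the 9 genes were above 0 under 5 scalings, and their size changed with the scaling. Gp6 was between 2.86 and 4.01, Ppbp between 2.96 and 3.71, Pf4 between 2.51 and 3.10, Vwf between 2.51 and 3.30, and Gp1bb between 2.20 and 2.85. Gp9 was between 1.48 and 2.33, Itga2b between 0.72 and 1.46, and Gp1ba between 0.67 and 1.36. Gp5 changed sign, between -0.56 and 0.15. On the second slide the number of members lower was 7 of 9 with the 75th percentile, 3 with the array median, 5 with quantile and with normexp, and 4 with the authors' values, so the sign of those small differences changed with the scaling.

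Set against each other, shRNA2 and shRNA1 (both with DEX) overlapped for all 9 genes, whereas 4.57% of all genes were higher and 12.3% lower in shRNA2 without overlap. The mean difference of shRNA2 over shRNA1 was 0.85 for Ppbp, 0.63 for Gp1bb, 0.53 for Pf4, 0.48 for Gp6, 0.38 for Gp1ba, 0.23 for Vwf and 0.22 for Gp5, and it was -0.59 for Gp9 and -0.39 for Itga2b. Of all genes, 36.3% had a positive difference. Adjusted p was 1.00 in limma for every member, 0 of all genes passed (0%), and 456 genes were below 0.05 unadjusted (2.38%). The intervals were wide, for example -1.91 to 3.61 for Ppbp and -2.96 to 4.01 for Pf4, so these values do not show that the hairpins act alike.

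**Figure D2:**
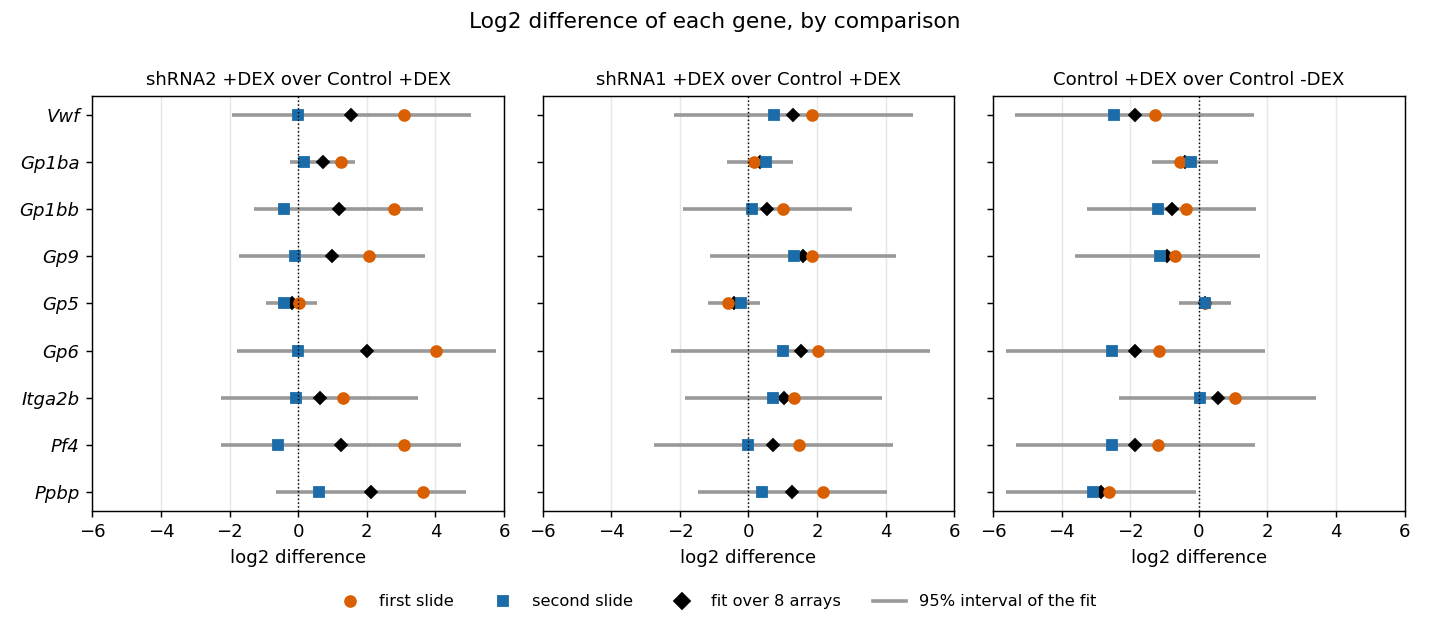
Log2 difference (x axis) of each of the 9 genes for shRNA2 and for shRNA1 against the control virus with DEX, and for DEX in control-virus cells. The mean is a diamond, the 95% interval of limma a bar, and the 2 slides are separate points. Most first-slide and second-slide points of shRNA2 against the control virus lie far apart, whereas for DEX in control-virus cells both slides have the same sign for all 9 genes.

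Replicate spread was larger for the members than for genes in general where shRNA was present. The median absolute difference between the replicates of a group was 3.22 for members and 0.86 for all genes with shRNA2, 1.93 and 0.81 with shRNA1, 0.67 and 0.50 with the control virus and DEX, and 0.44 and 0.41 with the control virus without DEX. In the shRNA2 group replicate 2 was the lowest of 8 arrays for 6 of the 9 members (20.7% of all genes). Nothing in the labels ties the replicates to separate cultures or animals. The p-values therefore cover only the spread from array to array, part of which may be technical.

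Over the 8 arrays 6 of the 9 members followed each other closely, and Itga2b, Gp1ba and Gp5 less so. The correlation of each gene with the mean of the others was 0.98 for Gp6, 0.96 for Vwf, 0.95 for Gp1bb, 0.94 for Pf4, 0.86 for Gp9 and 0.84 for Ppbp, and lower for Itga2b (0.64), Gp1ba (0.56) and Gp5 (0.16). The 8 points share 2 slides and come in 4 groups, so the correlations are a description. Without replicate 1 of shRNA2 the values were 0.98 for Gp6, 0.98 for Vwf, 0.87 for Gp1bb, 0.93 for Pf4, 0.82 for Gp9 and 0.82 for Ppbp over 7 arrays, but 0.34 for Itga2b, -0.10 for Gp1ba and -0.36 for Gp5. Of the 36 pairs Vwf with Gp6 had the highest correlation (0.98), and Gp9 with Gp5 the lowest (0.00).

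The genes most like the members, ranked by correlation over 8 arrays with their mean standardised profile among 13337 genes, were F5, Cdc42ep5, Pear1, Treml1, Ly6g6f, Lrrc32, Clu, Pls1, Pdgfb and Pdlim4, with values between 0.97 and 0.99. F5 encodes coagulation factor V, which is stored in platelets, and Treml1 a receptor of platelet granules. F5 was at -1.67 and -5.57 with shRNA2, -3.55 and -4.95 with shRNA1, -4.50 and -5.49 in control-virus cells with DEX, and -3.93 and -3.62 without DEX. Treml1 was at 4.65 and 0.33 with shRNA2, 2.90 and 0.99 with shRNA1, 1.29 and 0.44 with the control virus and DEX, and 2.02 and 2.62 without DEX. Of the 10, 4 (F5, Pear1, Treml1 and Clu) were in the wider lists of megakaryocyte genes described next. Without replicate 1 of shRNA2 the 10 correlations were between 0.93 and 0.98.

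**Figure D3:**
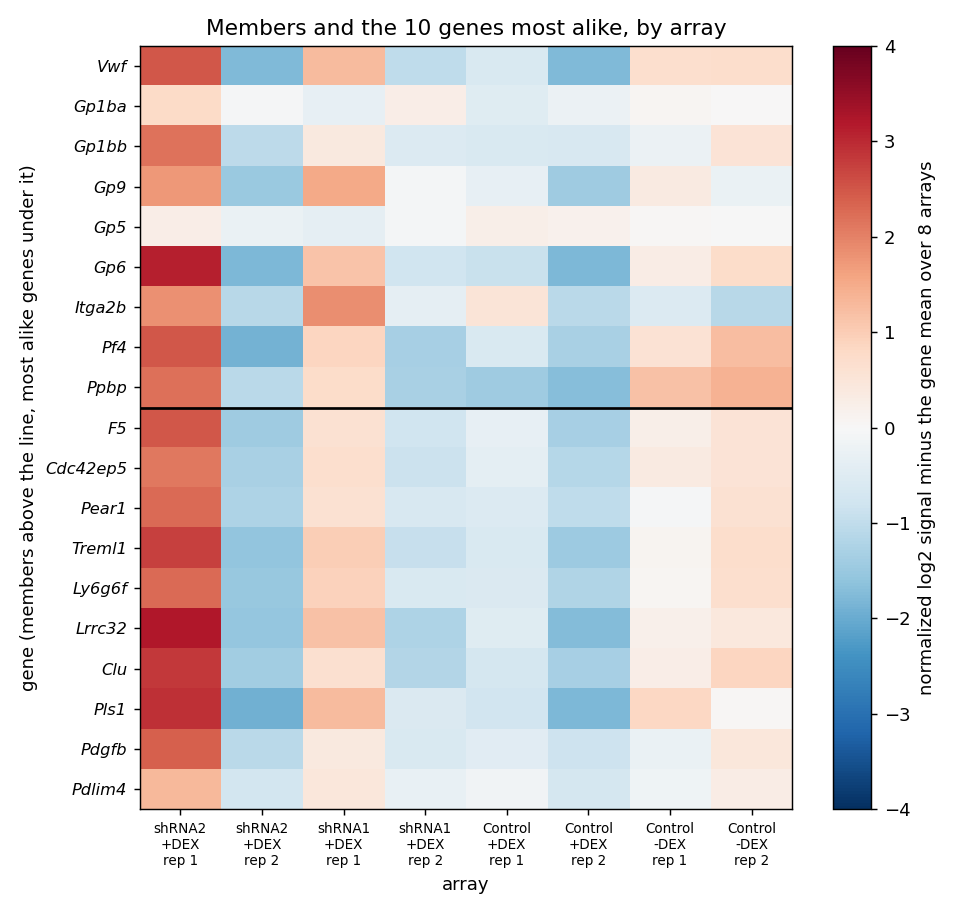
Normalized log2 signal minus the mean of the gene over 8 arrays (colour scale, log2 units) for the 9 genes and the 10 genes with the most similar profile, arrays in columns by group. The replicate 1 column of shRNA2 is the highest for 8 of the 9 genes.

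The wider megakaryocyte lists held 75 genes outside the 9 members, of which 69 were tested. With DEX, 44 of 69 were lower and 25 higher (63.8% lower, against 61.6% of all genes), with a median difference of -0.31, and 0 passed. The receptor genes (14 tested) had a median of -0.87 with 11 lower, the granule genes (13) of -0.86, the transcription factors (15) of -0.49 with 13 lower, the cytoskeleton genes (11) of 0.00, and the signalling genes (16) of 0.20. The transcription factor list includes Tal1 and Nfe2, and RNA of erythroid cells was not separated from that of megakaryocytes. Its values are therefore not specific to megakaryocytes, and the erythroid markers had a median of -0.45 in the same comparison. That list is part of every count over the 69 genes. Among the genes named by the rule, Tubb1, the platelet tubulin, differed by -2.11 (-1.59 and -2.63 on the slides) and Thbs1, thrombospondin 1, by -2.09 (-1.38 and -2.80). Alox12, the platelet lipoxygenase, differed by -2.03, and Treml1 by -1.45. Going the other way, F13a1, the A chain of coagulation factor XIII, differed by 1.48 (2.33 and 0.64 on the slides), Prkcq, a protein kinase C, by 1.27, Apbb1ip, the Rap1 adaptor RIAM, by 0.80, and Tln1, talin 1, by 0.35. Nrgn differed by 3.12 (SE 0.39, 2.98 and 3.25 on the slides, adjusted p 0.179 in limma), and it was the one of the 69 genes with an adjusted p below 0.05 with the slide as a block (0.0381).

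With shRNA1, 51 of the 69 were higher (73.9%, against 62.1% of all genes), with a median of 0.43. With shRNA2, 58 were higher (84.1%, against 51.4%), with a median of 0.49. Both counts include the transcription factor list, whose values are not specific to megakaryocytes. On both slides 43 genes were higher and 14 lower with shRNA1, and 24 were higher and 1 lower with shRNA2. The share of all genes is not given for these counts, so they are a description only. Tubb1 was 1.61 higher with shRNA1 (1.76 and 1.46 on the slides) and 1.68 with shRNA2 (3.03 and 0.32). Ptgs1, the platelet cyclooxygenase, was 2.07 higher with shRNA2 (3.64 and 0.51), and Rasgrp2, an activator of Rap1 in platelets, 1.89. Of the 14 genes lower on both slides with shRNA1, Prkcq differed by -0.85 (-0.64 and -1.06), Nrgn by -0.797, Srgn by -0.76 and P2ry1 by -0.74. The 1 gene lower on both slides with shRNA2 was Nrgn, which differed by -0.77. The 14 receptor genes were all higher with shRNA2 by mean (median 1.05), 2.68 on slide 1 and -0.29 on slide 2. No gene of the lists passed in either hairpin comparison in limma, with or without the block.

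By median, granulocyte and monocyte markers moved in the same direction as these values in the DEX comparison and with both hairpins. The 13 erythroid genes also did so with DEX in control-virus cells (median -0.45, 12 lower) and with shRNA1 (median 0.81, 12 higher). With shRNA2 the erythroid median was 0.015, with 7 genes higher and 6 lower. The remaining lists did not all move that way. With DEX in control-virus cells the mast cell sum was higher, and so was the median of the hepatocyte genes (0.73). The part of other cell types in the results was not tested. The summed linear signal, in units of the array 75th percentile, of 17 granulocyte genes (of 20 listed) was 702 and 135 with shRNA2, 301 and 206 with shRNA1, 116 and 109 with the control virus and DEX, and 117 and 226 without DEX. The sum of 14 megakaryocyte receptor genes was 100 and 10.7 with shRNA2, 31.1 and 12.9 with shRNA1, 16.4 and 12.1 with the control virus and DEX, and 17.1 and 30.6 without DEX. For both lists replicate 1 of shRNA2 was the highest array, and in the control-virus groups replicate 2 without DEX was higher than replicate 2 with it. The 9 monocyte and macrophage genes summed to 13.9 and 2.02 with shRNA2, 9.13 and 3.38 with shRNA1, 3.18 and 1.48 with the control virus and DEX, and 3.95 and 5.53 without DEX. By median difference the 17 granulocyte genes were at 2.39 with shRNA2 (4.11 and 0.68 on the slides), 1.55 with shRNA1 and -0.90 with DEX in control-virus cells, with 0 called. Endothelial cells also make Vwf, and 7 endothelial genes summed to 21.6 and 23.8 with shRNA2, 41.8 and 25.2 with shRNA1, 33.4 and 24.6 with the control virus and DEX, and 34.0 and 19.5 without DEX. That sum is carried by the brightest genes, and single genes differed: on replicate 1 of shRNA2 Pecam1 (-2.58 in log2) was the highest of 8 arrays and Kdr (2.29) the second highest. The Tek probe was not well above background on that array, while it was on every other array. With shRNA2 against the control virus with DEX, Flt1 differed by 1.77 and 0.16 on slides 1 and 2, Kdr by 0.74 and 0.53, Eng by -0.58 and -0.90, and Egfl7 by -0.95 and -0.077. Mast cell and basophil genes (10) summed to 47.7 and 28.1 with shRNA2, 48.6 and 17.9 with shRNA1, 60.7 and 28.5 with the control virus and DEX, and 11.3 and 15.5 without DEX. Single genes of this list went both ways: with DEX in control-virus cells 6 were lower and 4 higher, with a median of -0.49. Hdc differed by 2.85 and Kit, the gene of the c-kit antigen used in the sort, by 1.72, but Mcpt8 by -2.95 and Cma1 by -2.10. The 13 erythroid genes summed to 1932 and 655 with shRNA2, 2635 and 975 with shRNA1, 1264 and 627 with the control virus and DEX, and 1588 and 843 without DEX, and 7 hepatocyte genes to between 1.37 and 2.89 on every array.

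**Figure D4:**
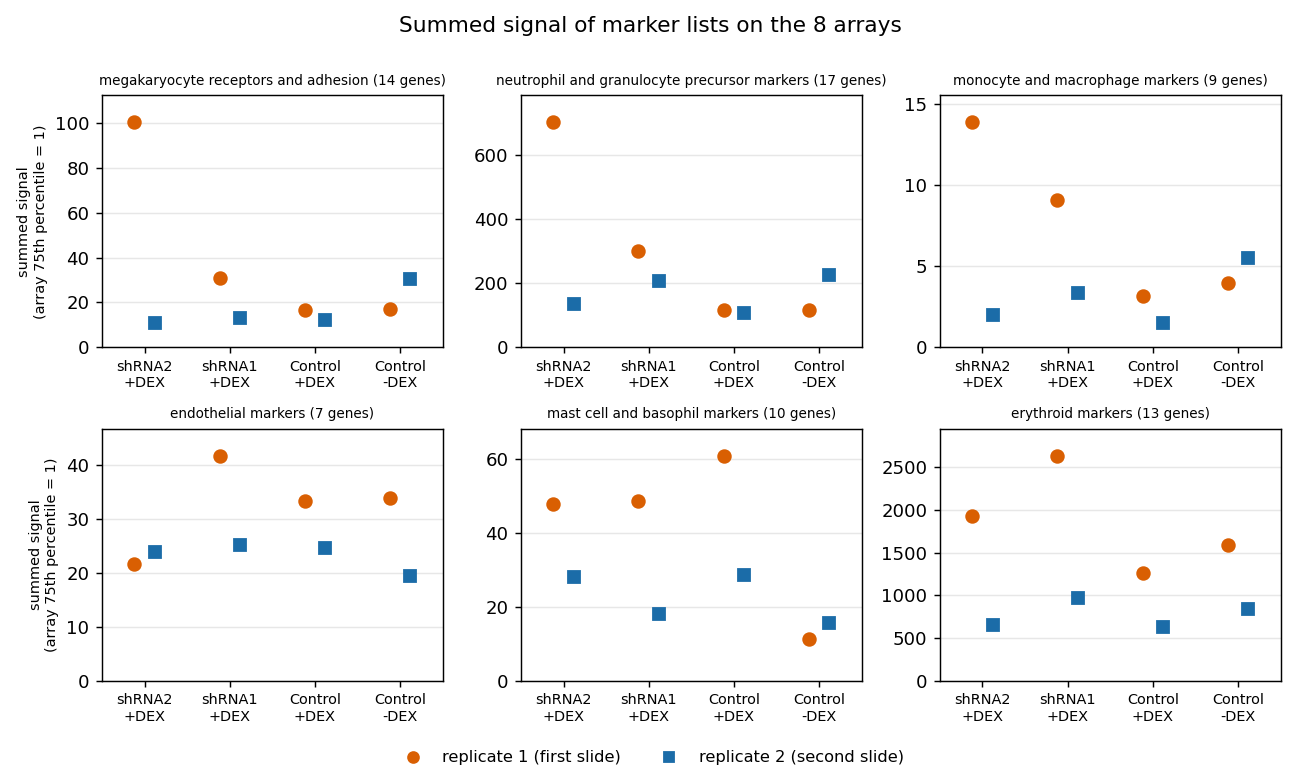
Summed linear signal of marker lists (y axis, units of the array 75th percentile) on each array, by group on the x axis; points are arrays, with replicates marked. The granulocyte sum (702) and the megakaryocyte receptor sum (100) are highest on replicate 1 of shRNA2, and the endothelial sum (41.8) on replicate 1 of shRNA1.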

How the data were processed

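Cy3-labelled RNA of each of the 8 samples was put on a 1-colour array. Per the file headers, the authors used Agilent Feature Extraction 10.1.1.1 for quantification, with spatial and multiplicative detrending and surrogate values switched on and a further background correction switched off. The submitters' processing notes name limma without a version. The deposited intensity of a spot (processed signal) is linear. A second deposited table holds log2 values; how it was made is not given in the sources used here. It ranked spots as the median signal of each array did (Spearman 1.00), had column medians of 6.65 to 6.66, and served only as an alternative.

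Of 44397 spots on an array, 1377 controls and spots with an outlier mark were left out, and 441 of 39429 probes lacked a usable spot on some array. Signals were taken as log2 minus the array 75th percentile. Names of 26581 probes came from the RefSeq gene table by accession, and the remaining 12848 were named as in the files. To be kept, a probe needed at least 1 group with every array well above background, and each gene was read from its brightest kept probe by mean (3900 genes had several). Differences came from limma 3.58.1 (lmFit, eBayes; R 4.3.3), with all 8 arrays in 1 fit of 4 groups, adjusted over 19130 genes at 0.05. The fit was tested on simulated data. Python 3.11.15 with pandas 2.3.3 and matplotlib 3.10.9 was used for tables and figures.

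Replicate numbers coincide with the slide in the file headers. Deviations of same-numbered arrays from their group means correlated at 0.43 to 0.86 over 19130 genes in all 6 pairs of groups. Arrays of a slide thus shared a difference, and the slide was used as a block in an alternative fit. Because number and slide coincide, the correlations cannot tell whether the samples were also paired by culture or animal. Genes outside the 9 members were named by rule: any passing the threshold, otherwise the 2 highest and 2 lowest differences of a list and comparison among genes with the same sign on both slides and well above background on all 4 arrays compared; likeness was ranked among genes well above background on at least 4 arrays. The members and the gene lists were chosen with earlier results of these data known, so no p over a list is given. Array number, 2 a group, limits the precision.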

Additional observations from a re-analysis of the deposited data

How the results depend on the processing

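Other scalings, the authors' values, no filter on dim probes, all probes tested separately, the replicate block and leaving out each array were tried. Some of these leave the log2 difference of every member as it was, so that direction could not turn. They are no filter, separate probes, the block, and leaving out an array of a group outside the comparison. Their results are counted below among those that kept the direction, so that count does not measure robustness. Of the results of single members under an alternative, 513 kept the direction and the side of the threshold, and 27 turned direction; none passed the adjusted threshold. The number of genes called was 44 with the replicate block for DEX and 1 with it for shRNA2, against 0 without it for both, and the pairing by slide changed no call of a member. Gp1ba with shRNA1 turned to -0.062 with the array median. Leaving out 1 array at a time, the median of members minus that of all genes was between -1.35 and -0.74 for DEX, 0.11 and 1.81 for shRNA1, -0.39 and 2.68 for shRNA2, and -1.40 and 2.30 for shRNA2 against shRNA1.

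Leaving out 1 array at a time turned the direction of these members, whose ranges were: for DEX, Itga2b -0.25 to 1.35; for shRNA1, Pf4 -0.36 to 1.81 and Itga2b -0.082 to 2.13; for shRNA2, Vwf -0.59 to 3.67, Gp1bb -0.42 to 2.79, Gp9 -0.62 to 2.60, Gp5 -0.45 to 0.062, Pf4 -0.93 to 3.43, Itga2b -0.85 to 2.10 and Gp6 -0.46 to 4.47; for shRNA2 against shRNA1, Vwf -1.90 to 2.36, Gp1bb -0.97 to 2.24, Gp9 -2.21 to 1.02, Ppbp -0.79 to 2.50, Gp5 -0.035 to 0.47, Pf4 -1.65 to 2.71, Itga2b -1.87 to 1.08, Gp1ba -0.035 to 0.79 and Gp6 -1.99 to 2.94. Where a direction turned, the fit set a group on 1 slide against a group on both slides. The cause of these turns was not tested beyond which array was left out. The smallest adjusted p of a member over all alternatives was 0.334 for DEX, 0.275 for shRNA1, 0.551 for shRNA2 and 0.660 for shRNA2 against shRNA1. With 2 arrays a group, 1 array decides the shRNA2 means, and Gp6 had the largest SE of the members (1.55).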
